A study of Mus musculus with 4 samples.

Results

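Olfm4, Lgr5, Ascl2, Lyz1, Mmp7, Ang4, Reg3b, Reg3g, Muc2 and Tff3 are genes of the crypts and secretory cells of the intestinal epithelium, and they were followed here through RNA sequencing of sorted immune cells. The 10 genes were taken by symbol from the 27179 genes of the deposited table, and all 10 passed the filter on low counts. The set was chosen by its roles in the crypt and selected on measured values of the same comparison, since Olfm4 was much higher in the Gata3-KO libraries. That difference is therefore described for the 10 genes with its standard error and is not offered as a test. Lgr5 and Ascl2 passed the filter through the Gata3-KO libraries.

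The sorted cells were lymphoid tissue inducer (LTi) cells, innate lymphocytes that make lymphotoxin and IL-22, from the lamina propria of the small intestine of C57BL/6 mice. They were gated as Lin-CD127+ cells without KLRG1, NK1.1 or NKp46 and with CCR6. There were 2 control libraries (Ctrl), from Gata3+/+ mice, and 2 libraries labelled Gata3-KO, from Gata3fl/fl mice carrying VavCre. The Vav promoter drives Cre in blood-forming cells and their offspring, and the epithelium itself is outside its known range. The labels give no age for the mice and do not say whether the libraries of a genotype came from separate animals, so the spread between them may be technical. The Ctrl libraries held 14294708 and 12670034 reads and the Gata3-KO libraries 24315878 and 23973995.

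In the crypt, stem cells at the base divide under Wnt signals and their daughters become absorptive cells or secretory cells. Paneth cells sit between the stem cells and release lysozyme and defensins, and goblet cells release mucin and trefoil peptides. IL-22, a cytokine of LTi cells, acts on epithelial cells through a receptor made of IL-22RA1 and IL-10RB and induces antimicrobial lectins of the Reg3 family through STAT3.

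LTi genes were present in every library, and all 16 LTi markers had reads in all 4. The 16 summed to 5012 and 3401 RPKM in Ctrl and 1981 and 2450 RPKM in Gata3-KO. Il22 alone stood at 2401 and 1520 RPKM in Ctrl and 129 and 287 RPKM in Gata3-KO, so these sums follow Il22 in large part. Of the 16 log2 differences between genotypes, 7 were positive and 9 negative, and their median was -0.21 against 0.45 over all tested genes. With libraries scaled by the median ratio of reads, 13 were negative, and the median was -0.80 against 0.04. Both Gata3-KO libraries lay below both Ctrl libraries for 6 and above for 4, against 7.61% and 54.6% of all tested genes. Of the 16, 2 were called lower, Il22 among them, and none higher, beside 0.739% and 9.47% of all tested genes. RPKM divides the reads of a gene by its counted exon length and by the total of the library, so it allows levels of different genes to be set side by side. Gata3 itself was at 84.3 and 50.7 RPKM in Ctrl and 34.5 and 23.3 RPKM in Gata3-KO, a log2 difference of -1.18 ± 0.36 (SE) that did not pass the test (adjusted p = 0.0863 in limma). Transcripts of other cells were also present. The 25 pan-epithelial genes, with Epcam and Cdh1 among them, summed to 822 and 545 RPKM in Ctrl and 2966 and 4135 RPKM in Gata3-KO, none of them was at 0 in a Ctrl library, and 23 were called higher. The 16 B and plasma cell genes summed to 533 and 702 RPKM in Ctrl and 4574 and 2777 RPKM in Gata3-KO. The part of these other cells in the differences below was not tested, and fewer cells of a type cannot be told apart from less RNA per cell in such bulk samples.

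The comparison asked how the transcripts of LTi cells differ when floxed Gata3 can be deleted. A gene was called when its Benjamini-Hochberg adjusted p in limma was under 0.05, and differences are on the log2(RPKM + 1) scale, Gata3-KO minus Ctrl. Of 13660 tested genes, 10.2% were called, 9.47% higher and 0.739% lower. The median tested gene lay 0.45 above 0 on this scale, so the differences of the 10 genes are also given relative to it. Those of other genes include this shift unless stated otherwise. Scaling by the median ratio of reads brought that median to 0.04 and reduced the calls to 1.33% of genes, 0.835% higher and 0.498% lower. Leaving out any 1 of the 4 libraries ended every call at the deposited scaling, also those given for single genes below, while 2444 to 3788 genes had an unadjusted p under 0.05 in limma.

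Of the 10 genes, 4 were called higher (Olfm4, Lgr5, Ascl2 and Tff3) and none lower, beside 9.47% and 0.739% of all tested genes. With median-ratio scaling Olfm4 and Tff3 kept the call, beside 0.835% of all tested genes called higher. The set was selected on this comparison, so these calls describe its genes and are no test of the set. Both Gata3-KO libraries lay above both Ctrl libraries for 7 of the 10, as they did for 54.6% of all tested genes, and both lay below for none, against 7.61%. With median-ratio scaling both lay above for 6 of the 10, against 30.2% of all tested genes, and below for none, against 25.8%. Lyz1, Ang4 and Muc2 were the 3 whose genotypes overlapped. The stem genes and Tff3 were far higher in Gata3-KO, Muc2 and the Paneth genes differed by less than the spread between libraries or little more, and the Reg3 genes were high mainly in 1 library.

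**Figure D1:**
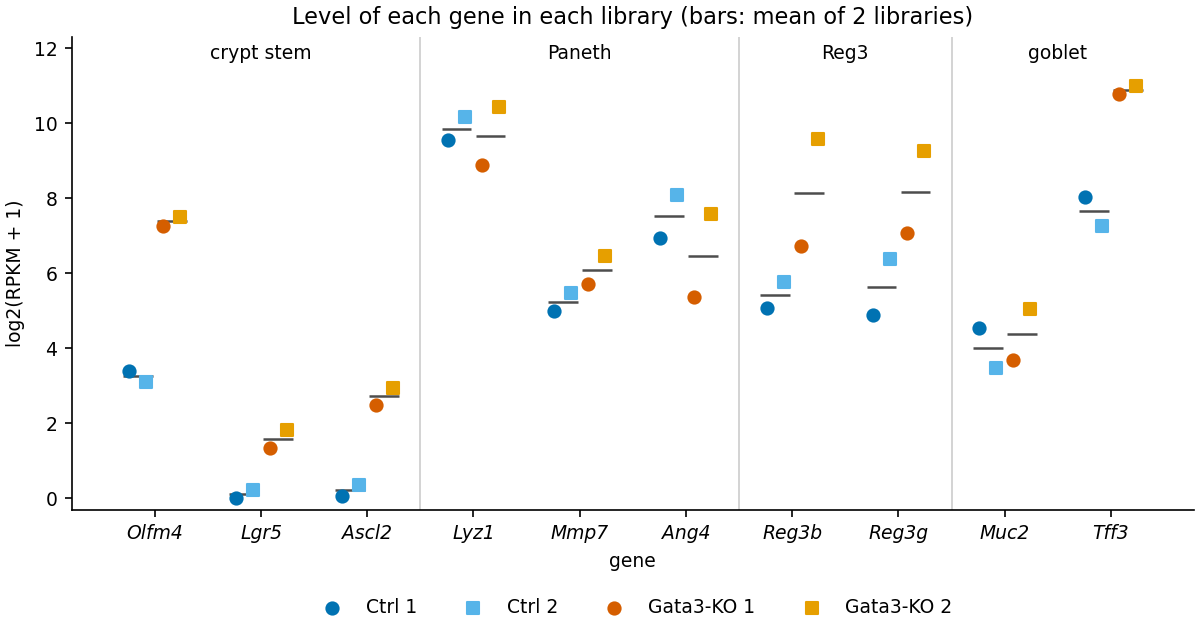
Level of each of the 10 genes on the log2(RPKM + 1) scale (vertical axis) by gene (horizontal axis), with 1 point per library and bars at the mean of the 2 libraries of a genotype. Olfm4, Ascl2 and Tff3 show a gap between genotypes that is wide beside the gap between libraries, while the 4 points of Lyz1, Ang4 and Muc2 interleave.

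Among the crypt stem genes, Olfm4, which codes for olfactomedin 4, a secreted glycoprotein of crypt base cells, was measured at 9.55 and 7.65 RPKM in the Ctrl libraries and at 153 and 181 RPKM in the Gata3-KO libraries. The libraries of a genotype lay close together, and the genotypes were far apart. Mean Olfm4 was 8.60 ± 1.35 RPKM in Ctrl and 167 ± 19.9 RPKM in Gata3-KO (SD, n = 2 each), a 19.4-fold ratio, and the log2 difference of 4.13 ± 0.27 (SE) was 3.68 above the median gene. Of all tested genes, 99.4% had a smaller difference. Olfm4 lies on chromosome 14 from 80000302 to 80023141 (GRCm38), and its reads numbered 224 and 159 in Ctrl and 6098 and 7117 in Gata3-KO. Its counted exons came out at 1640 bases, short of the longest GENCODE transcript of 2801 bases, so these read numbers are less certain than the RPKM.

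Ascl2, the transcription factor that sets the stem cell programme of the crypt base (chromosome 7: 142966822 to 142969264), had 1 and 6 reads in the Ctrl libraries and 183 and 256 reads in the Gata3-KO libraries. These are 0.0434 and 0.294 RPKM against 4.67 and 6.62 RPKM. Its Ctrl values rest on counts so low that their exact 95% Poisson intervals run from 0.00110 to 0.242 RPKM and from 0.108 to 0.639 RPKM, and both end below the Gata3-KO values. The log2 difference was 2.50 ± 0.34 (SE), or 2.05 above the median gene.

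Lgr5, the Wnt-amplifying receptor for R-spondins by which crypt stem cells were defined (chromosome 10: 115450314 to 115587780), was not detected in Ctrl replicate 1, where 0 reads allow up to 3 reads or 0.0445 RPKM. It had 10 reads (0.168 RPKM) in Ctrl replicate 2 and 177 and 289 reads (1.55 and 2.56 RPKM) in the Gata3-KO libraries. The log2 difference of 1.48 ± 0.30 (SE) was 1.03 above the median gene. It understates the change of so low a gene, because 1 is added to each RPKM. With 0.1 added it was 3.68 ± 0.78 (SE) for Lgr5, which then lost its call, and 4.57 ± 0.72 (SE) for Ascl2, which did not. Neither gene kept its call with median-ratio scaling, where the log2 difference was 2.20 ± 0.32 for Ascl2 and 1.26 ± 0.27 for Lgr5 (SE).

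Other crypt base and Wnt target genes varied in how far they shared this pattern. Of 29 such genes 27 were tested, and 7 rose and none fell, beside 9.47% and 0.739% of all tested genes. The median log2 difference of the list was 0.86 against 0.45 over all tested genes. Of the 7 that rose, Cdca7 and Gkn3 passed the filter through the Gata3-KO libraries where they were high. Cdca7, a Myc-responsive gene of dividing cells, rose from 0.444 ± 0.460 to 14.7 ± 1.62 RPKM (SD, n = 2), and its log2 difference was 3.48 ± 0.37 (SE, adjusted p = 0.0120 in limma). Sox9, a Wnt-dependent transcription factor of crypts and Paneth cells, rose from 2.87 ± 1.12 to 32.4 ± 0.290 RPKM (adjusted p = 0.0115 in limma). Prom1, the surface protein CD133, rose by 2.67 ± 0.32 (SE) and Lrig1, a brake on growth factor receptors, by 1.82 ± 0.33 (SE) on the log2 scale, with adjusted p of 0.0155 and 0.0301 in limma. Cdca7, Sox9 and Prom1 were also called with median-ratio scaling. Cd44, Igfbp4 and Zfp703, the uncalled genes of this list with the highest mean levels, differed by -0.12, -0.39 and -0.48, and of these Cd44 codes for an adhesion receptor that lymphocytes carry too.

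The 5 tested genes whose profile over the 4 libraries lay nearest to that of Olfm4 were Nuak2, Fscn1, Ighv1-66, Nlrp6 and Rnf186, out of 5507 genes with at least 10 RPKM in the higher genotype. Nearness was the root mean square difference of log2(RPKM + 1) after centring each gene, and it ran from 0.186 for Nuak2 to 0.334 for Rnf186. Nuak2, a kinase of the AMPK family, stood at 0.112 and 0.227 RPKM in Ctrl and 15.4 and 22.8 RPKM in Gata3-KO. Nlrp6, an innate sensor of the intestinal epithelium, stood at 0.256 and 0.351 RPKM in Ctrl and 14.4 and 14.3 RPKM in Gata3-KO. Ighv1-66 is an immunoglobulin variable gene, at 6.90 and 4.56 RPKM in Ctrl and 119 and 188 RPKM in Gata3-KO. A gene of B cells thus lay near the profile of Olfm4, and likeness over 4 libraries cannot separate one cell source from another.

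**Figure D2:**
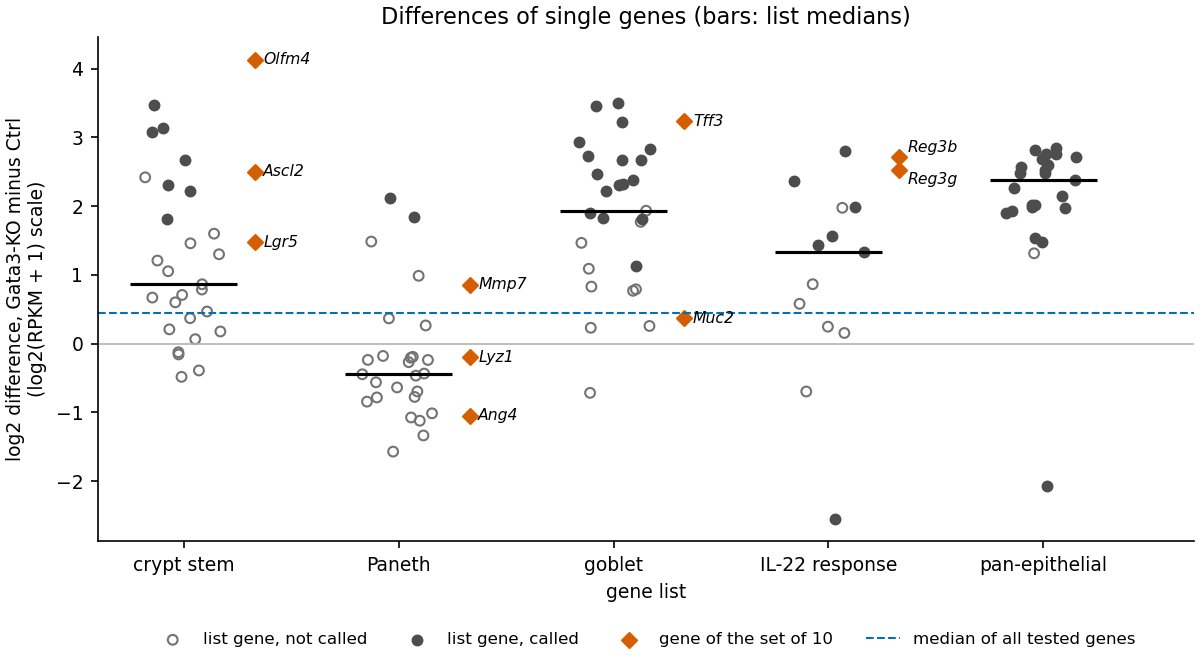
Log2 difference between genotypes (vertical axis, log2(RPKM + 1) scale) of single tested genes in 5 lists (horizontal axis), with filled points for called genes, black bars for list medians, diamonds for the set of 10 and a dashed line at the median tested gene. The Paneth list has its median at -0.44, below the dashed line at 0.45, and the goblet and pan-epithelial lists have theirs at 1.93 and 2.39.

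Paneth cell genes were abundant in both genotypes and did not follow the stem genes. Lyz1, the lysozyme of Paneth cells (chromosome 10: 117287795 to 117292868), was at 747 and 1140 RPKM in Ctrl and at 468 and 1378 RPKM in Gata3-KO. The lowest and the highest value both came from Gata3-KO libraries, so the genotypes overlapped. Mean Lyz1 of 943 ± 278 RPKM in Ctrl and 923 ± 644 RPKM in Gata3-KO (SD, n = 2 each) differed by far less than the spread within genotypes. The log2 difference was -0.20 ± 0.57 (SE), or -0.65 relative to the median gene. Without Gata3-KO replicate 1 it turned to 0.58, and without Ctrl replicate 2 to 0.10. Lyz1 ranked 65th and 33rd among all genes by RPKM in the Ctrl libraries.

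Reads of Lyz1 can be shared with Lyz2, the lysozyme of myeloid cells, since the 2 transcripts are 96.0% identical over 1262 aligned bases. Lyz2 was measured at 19.7 and 27.5 RPKM in Ctrl and 8.99 and 67.4 RPKM in Gata3-KO, far below Lyz1 and in the same order of libraries. How the counting treated reads with several positions is not given in the sources used here, so the Lyz2 values are uncertain.

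Ang4, an antimicrobial ribonuclease of Paneth cells (chromosome 14: 51763892 to 51773590), was at 122 and 272 RPKM in Ctrl and at 40.2 and 190 RPKM in Gata3-KO. The genotypes overlapped here too, with Gata3-KO replicate 1 lowest and Ctrl replicate 2 highest. The log2 difference was -1.05 ± 0.85 (SE), or -1.50 relative to the median gene, and it came to 0.06 without Gata3-KO replicate 1. Ang4 is 90.2% identical to Ang5 in transcript sequence, and some reads may be shared with that gene.

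Mmp7, the protease matrilysin that cuts defensin precursors into active peptides (chromosome 9: 7692090 to 7699585), was at 30.8 and 43.3 RPKM in Ctrl and at 51.8 and 86.7 RPKM in Gata3-KO. Its genotypes did not overlap, by a narrow margin, and with median-ratio scaling they did. The log2 difference of 0.86 ± 0.35 (SE) was 0.41 above the median gene, and with median-ratio scaling it was 0.28 ± 0.34 (SE).

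Most other Paneth genes overlapped between genotypes, 21 of the 26 tested. Both Gata3-KO libraries lay above both Ctrl libraries for 4 and below for 1, against 54.6% and 7.61% of all tested genes. Of 28 further genes 2 were not tested, and Copz2 and Dll4 were the 2 that rose (adjusted p of 0.0264 and 0.0393 in limma), beside 9.47% of all tested genes. With 1 and 4 Ctrl reads for Copz2 and 3 and 19 for Dll4, both passed the filter through the Gata3-KO libraries where they were high. Dll4 codes for a Notch ligand and Copz2 for a vesicle coat subunit, and neither is an antimicrobial product. No Paneth gene fell at these settings, while 1 was called lower with replicate number as a block. With median-ratio scaling or limma-voom no call was made in this list. In these fits 4 and 3 of its 26 tested genes had an unadjusted p under 0.05, against 3183 and 3917 of all 13660 tested genes. The median log2 difference was -0.44, with 20 of the 26 below 0, against 0.45 over all tested genes.

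The 15 defensin genes of the list, which code for the main antimicrobial peptides of Paneth granules, summed to 4919 and 7566 RPKM in Ctrl and to 2533 and 8420 RPKM in Gata3-KO. None of the 15 was called in limma or in limma-voom, none had an unadjusted p under 0.05, and the genotypes overlapped for each of them. Of all 13660 tested genes, 10.2% were called in limma, and 4292 had an unadjusted p under 0.05 in that fit. Both Gata3-KO libraries lay above both Ctrl libraries for 54.6% of all tested genes and below for 7.61%. Defa24 alone made up 51.7% to 64.3% of the sum in the 4 libraries, at 2825 and 3914 RPKM in Ctrl and 1629 and 4679 RPKM in Gata3-KO. Defensin genes are close copies of each other and reads may be divided among them, so the sum is safer than any single value. Itln1, the lectin intelectin of Paneth and goblet cells, stood at 477 and 960 RPKM in Ctrl and 349 and 1006 RPKM in Gata3-KO, and Defa30 differed by -0.46 ± 0.56 (SE).

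Most Paneth genes also had the same order of replicates. In 24 of the 26 tested genes of the Paneth list, all but Copz2 and Guca2b, replicate 1 lay below replicate 2 in both genotypes, as it did for all 15 defensins, for Lyz1, Mmp7 and Ang4, and for 25.0% of all tested genes. Gata3-KO replicate 1 was the lowest library for every one of the 15 defensins. Other lists varied widely on this count, with 9 of 11 stromal, 10 of 16 B and plasma cell, 6 of 12 myeloid, 6 of 13 IL-22 and 11 of 27 crypt stem genes, against 6 of 27 goblet, 3 of 25 pan-epithelial, 3 of 16 LTi, 2 of 17 enterocyte and 1 of 15 T cell genes. The whole Paneth list summed to 5550 and 9167 RPKM in Ctrl and to 3058 and 9888 RPKM in Gata3-KO, so the gap between libraries of a genotype was wider than that between the genotypes' means. These genes share 4 libraries and are no independent replicates of that pattern.

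**Figure D3:**
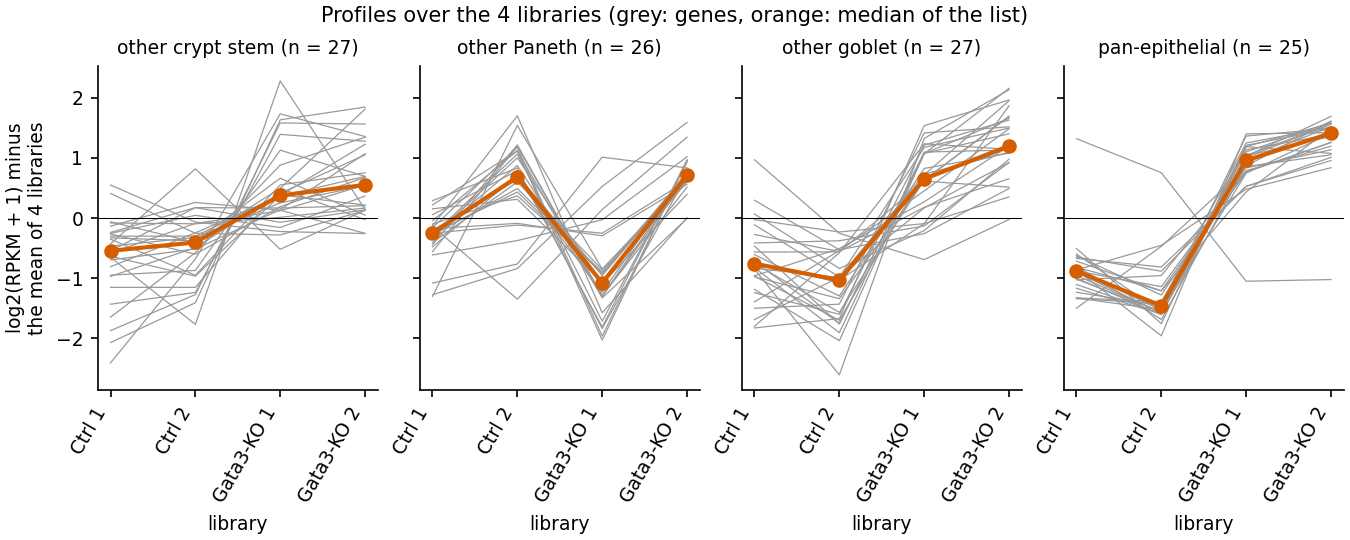
Level of each tested gene in the 4 libraries (horizontal axis) as log2(RPKM + 1) minus its mean over the libraries (vertical axis), with grey lines for genes and the orange line for the median of each list. The Paneth median zigzags, with Gata3-KO replicate 1 lowest, while the goblet and pan-epithelial medians step up from both Ctrl to both Gata3-KO libraries.

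Among the goblet cell genes, Tff3 and Muc2 differed from each other. Tff3, the trefoil peptide that goblet cells release to protect and repair the mucosa (chromosome 17: 31125306 to 31129611), was at 263 and 153 RPKM in Ctrl and at 1764 and 2027 RPKM in Gata3-KO. Both Gata3-KO libraries lay well above both Ctrl libraries, and Tff3 was then the highest of the 10 genes. Mean Tff3 was 208 ± 77.8 RPKM in Ctrl and 1896 ± 186 RPKM in Gata3-KO (SD, n = 2), a 9.13-fold ratio. The log2 difference of 3.23 ± 0.37 (SE) was 2.78 above the median gene, and with median-ratio scaling it was 2.65 ± 0.29 (SE).

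Muc2, the gel-forming mucin of goblet cells (chromosome 7: 141690340 to 141754691), was at 22.2 and 10.1 RPKM in Ctrl and at 11.9 and 32.1 RPKM in Gata3-KO. The genotypes overlapped, with the lowest value in Ctrl replicate 2 and the highest in Gata3-KO replicate 2. The log2 difference of 0.37 ± 0.57 (SE) was -0.08 relative to the median gene, and it turned to -0.18 ± 0.53 (SE) with median-ratio scaling, to -0.17 without Ctrl replicate 2 and to -0.31 without Gata3-KO replicate 2. The counted exons of Muc2 added up to 2923 bases, close to the longest GENCODE transcript of 2926 bases, although the protein is very large, so the values cover only part of such a transcript.

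Of 30 other goblet genes 27 were tested, and 17 rose, 10 were not called and none fell, beside 9.47% higher and 0.739% lower of all tested genes. The median log2 difference was 1.93, and 4 of the 27 overlapped between genotypes. Both Gata3-KO libraries lay above both Ctrl libraries for 23 and below for none, against 54.6% and 7.61% of all tested genes. Of the 17, Spdef, Creb3l4, Capn9 and Tpsg1 passed the filter through the Gata3-KO libraries. Zg16, a lectin that binds bacteria in mucus, rose from 120 ± 9.21 to 1373 ± 285 RPKM (SD, n = 2, adjusted p = 0.0089 in limma). Ccl6, a chemokine that myeloid cells make too, rose from 10.5 ± 0.384 to 86.6 ± 4.35 RPKM, and the transmembrane mucin Muc13 from 12.2 ± 2.30 to 93.5 ± 19.2 RPKM, with adjusted p of 0.00815 and 0.0119 in limma. Rep15, a partner of the trafficking protein Rab15, rose by 2.67 ± 0.37 (SE, adjusted p = 0.0183 in limma) on the log2 scale. Reg4, a secreted lectin of secretory cells, differed by 1.47 ± 0.39, the transcription factor Klf4 by -0.71 ± 0.47 and the membrane mucin Muc3 by 0.79 ± 0.41 (SE), and none of them passed. With median-ratio scaling 3 goblet genes were called (Zg16, Ccl6 and Muc13). The pan-epithelial genes rose in the same libraries, with a median log2 difference of 2.39.

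The Reg3 genes code for secreted C-type lectins that bind bacterial cell walls. Reg3b (chromosome 6: 78370885 to 78373466) was at 32.8 and 53.6 RPKM in Ctrl and at 105 and 757 RPKM in Gata3-KO. Reg3g (chromosome 6: 78466269 to 78468874) was at 28.4 and 82.3 RPKM in Ctrl and at 133 and 611 RPKM in Gata3-KO. Both genes were highest in Gata3-KO replicate 2, which held 7.24 times the level of the other Gata3-KO library for Reg3b and 4.60 times for Reg3g, and neither overlapped between genotypes.

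The log2 differences were 2.72 ± 1.05 for Reg3b and 2.53 ± 0.92 for Reg3g (SE), the widest errors of the 10 genes, and neither was called. They lay 2.27 and 2.08 above the median gene. Without Gata3-KO replicate 2 the log2 differences fell to 1.30 and 1.44, and without Gata3-KO replicate 1 they were 4.14 and 3.63. The fold ratios of the means, 9.97 for Reg3b and 6.72 for Reg3g, therefore rest in large part on a single library.

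Reg3b and Reg3g lie 92.8 kb apart, with 4 other protein-coding genes of the Reg family between them (Reg3d, Reg3a, Reg2 and Reg1), and their transcripts are 73.1% identical over 743 aligned bases. Since the 2 genes moved together, the 250 bases before each RefSeq start (GRCm38.p6) were searched, and the longest stretch of each outside the gene's own GENCODE exons is shown, 5′ to 3′ on the strand of the gene, beside those of Olfm4, the gene on which the set was selected. Promoter sequences were found for 8 of the 10 genes. Capitals mark matches, on either strand, to TTCNNNGAA (the STAT motif), CTTTGA (the TCF/LEF motif of Wnt signalling) and TTTATNG (the CDX motif of intestinal factors).
Reg3b, chr6:78370707-78370860, plus strand: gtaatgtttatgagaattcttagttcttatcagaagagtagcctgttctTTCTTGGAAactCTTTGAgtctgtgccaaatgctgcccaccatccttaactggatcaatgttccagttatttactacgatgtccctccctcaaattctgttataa
Reg3g, chr6:78468875-78469124, minus strand: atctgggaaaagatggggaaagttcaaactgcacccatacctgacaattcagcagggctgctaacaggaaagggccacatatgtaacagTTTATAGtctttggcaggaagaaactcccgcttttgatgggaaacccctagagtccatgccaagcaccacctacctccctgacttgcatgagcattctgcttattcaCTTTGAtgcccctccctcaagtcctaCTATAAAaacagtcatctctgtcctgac
Olfm4, chr14:80000052-80000250, plus strand: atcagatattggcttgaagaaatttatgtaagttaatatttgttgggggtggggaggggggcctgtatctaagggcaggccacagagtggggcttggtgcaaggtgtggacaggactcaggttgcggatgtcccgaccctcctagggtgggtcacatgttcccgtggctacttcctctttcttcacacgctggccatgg

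The Reg3b and Reg3g windows were 70.0% identical over 247 aligned bases, and the last 20 bases before the start were the same in both. Reg3b held the STAT match TTCTTGGAA at 129 to 121 bases before its start and a TCF/LEF match at 117 to 112. Reg3g held no STAT match in this window, a TCF/LEF match at 54 to 49 bases and CDX matches at 161 to 155 and 28 to 22 bases. Ang4 also held a STAT match, TTCCCTGAA at 192 to 184 bases, and the Olfm4 window held none of the 3 motifs. Among 32851 promoter windows of this length, 7.02% held the STAT, 13.8% the TCF/LEF and 9.81% the CDX motif, without regard to overlap between them. A match is a run of letters and not a shown binding site. Positions count from the RefSeq start, and GENCODE transcripts of Reg3b start 228 and 24 bases before it and 13 and 1646 bases after it, so the positions depend on the annotation.

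IL-22 and its receptor were read beside the Reg3 genes. Il22 fell from 1960 ± 623 to 208 ± 112 RPKM (SD, n = 2, adjusted p = 0.0202 in limma), while both Reg3 genes had higher means in the same Gata3-KO libraries. Il22ra1, the receptor chain found on epithelium, was at 0.0240 and 0.0813 RPKM in Ctrl and 0.706 and 0.451 RPKM in Gata3-KO, and Il10rb, the chain that blood cells share, at 14.9 and 12.5 RPKM and 27.6 and 23.9 RPKM. Neither passed the test (adjusted p of 0.120 and 0.0934 in limma). Both Gata3-KO libraries lay above both Ctrl libraries for each, as they did for 54.6% of all tested genes. The Il10rb log2 difference of 0.87 ± 0.27 (SE) was 0.42 above the median gene, and with median-ratio scaling it was 0.31 ± 0.24 (SE). Il22ra1 had 2 and 6 reads in Ctrl and 100 and 63 reads in Gata3-KO. All its values lay below 1 RPKM, so its log2 difference of 0.58 ± 0.21 (SE) understates the change, because 1 is added to each RPKM.

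A further list held other genes taken as induced by IL-22 in epithelium. Of 26 genes on this list, which holds the 2 receptor chains as well, 13 were tested, and 6 rose and 1 fell, beside 9.47% and 0.739% of all tested genes. Of the 13 log2 differences, 11 were positive and 2 negative, and with median-ratio scaling 4 were negative. Duoxa2 and Duox2, partners in making hydrogen peroxide at the epithelial surface, rose by 2.80 ± 0.38 and 1.33 ± 0.26 (SE) on the log2 scale, and Pigr, the transporter of IgA across epithelium, rose from 18.5 ± 1.70 to 104 ± 41.3 RPKM, with adjusted p of 0.0182, 0.0326 and 0.0202 in limma. Duoxa2 and Duox2, with 3 and 8 and 1 and 7 Ctrl reads, passed the filter through the Gata3-KO libraries, as did Il18 among the 6. Tgm2, a transglutaminase, fell from 887 ± 400 to 148 ± 51.3 RPKM (adjusted p = 0.0273 in limma). At 1170 and 604 RPKM in Ctrl it stood above the sum of the 25 pan-epithelial genes (822 and 545 RPKM), and its cell source was not tested. Tgm2 was the 1 gene of this list still called with median-ratio scaling. Socs3, the feedback inhibitor of STAT3, stood at 153 and 237 RPKM in Ctrl and 202 and 224 RPKM in Gata3-KO. Reg1, which lies between the Reg3 genes, was at 8.28 and 141 RPKM in Ctrl and 14.5 and 119 RPKM in Gata3-KO, so that its libraries differed by replicate as those of the Paneth genes did.

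The order of the 10 genes by mean RPKM differed between genotypes. In Ctrl it ran Lyz1, Tff3, Ang4, Reg3g, Reg3b, Mmp7, Muc2, Olfm4, Ascl2 and Lgr5. In Gata3-KO it ran Tff3, Lyz1, Reg3b, Reg3g, Olfm4, Ang4, Mmp7, Muc2, Ascl2 and Lgr5. In Ctrl the neighbours Tff3 and Ang4, Reg3g and Reg3b, Reg3b and Mmp7, and Ascl2 and Lgr5 overlapped between libraries. In Gata3-KO every step from Lyz1 down to Mmp7 overlapped, while Tff3 lay above and Muc2, Ascl2 and Lgr5 lay below their neighbours in both libraries. Olfm4 passed from 1 of the 3 lowest genes to the middle of the set.

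Set against the pan-epithelial transcripts of the same library, the order of the genotypes differed from gene to gene. Olfm4 amounted to 1.16% and 1.40% of the summed pan-epithelial RPKM in Ctrl and to 5.16% and 4.38% in Gata3-KO. Lyz1 amounted to 90.9% and 209% in Ctrl and to 15.8% and 33.3% in Gata3-KO. The genotypes did not overlap for either ratio. Lyz1 itself was alike in mean between genotypes, at 943 and 923 RPKM, while the summed signal it is divided by was higher in Gata3-KO.

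Ascl2, Lgr5 and Tff3 lay higher per unit of this signal in both Gata3-KO libraries, and Mmp7, Ang4 and Muc2 lay lower in both. Mean log2 differences were 1.89 for Olfm4, 3.23 for Ascl2 and 0.85 for Tff3, against -2.59 for Lyz1, -1.51 for Mmp7, -3.45 for Ang4 and -2.00 for Muc2. The Ascl2 value rests on 1 read in Ctrl replicate 1 and was 1.56 without that library. For Lgr5, Ctrl replicate 2 and Gata3-KO replicate 1 were within counting error of each other on this measure. The 10 reads of Ctrl replicate 2 allow up to 0.0565% (95% Poisson limit), and Gata3-KO replicate 1 stood at 0.0521%. Ctrl replicate 1, with 0 reads, allows up to 0.00667% by the same limit, below both Gata3-KO libraries (0.0521% and 0.0619%). Reg3b and Reg3g overlapped between genotypes on this measure, at 0.36 and 0.17, and with Epcam alone as the reference they turned to -0.07 and -0.26. With that reference Olfm4, Ascl2 and Tff3 gave 1.47, 2.81 and 0.42, and Lyz1, Mmp7, Ang4 and Muc2 stayed lower in Gata3-KO. Tff3 then stood at 1211% and 745% of Epcam in Ctrl and at 1304% and 1246% in Gata3-KO, a narrow margin. A ratio within a library shows unequal change, and which of its parts moved cannot be read from it.

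**Figure D4:**
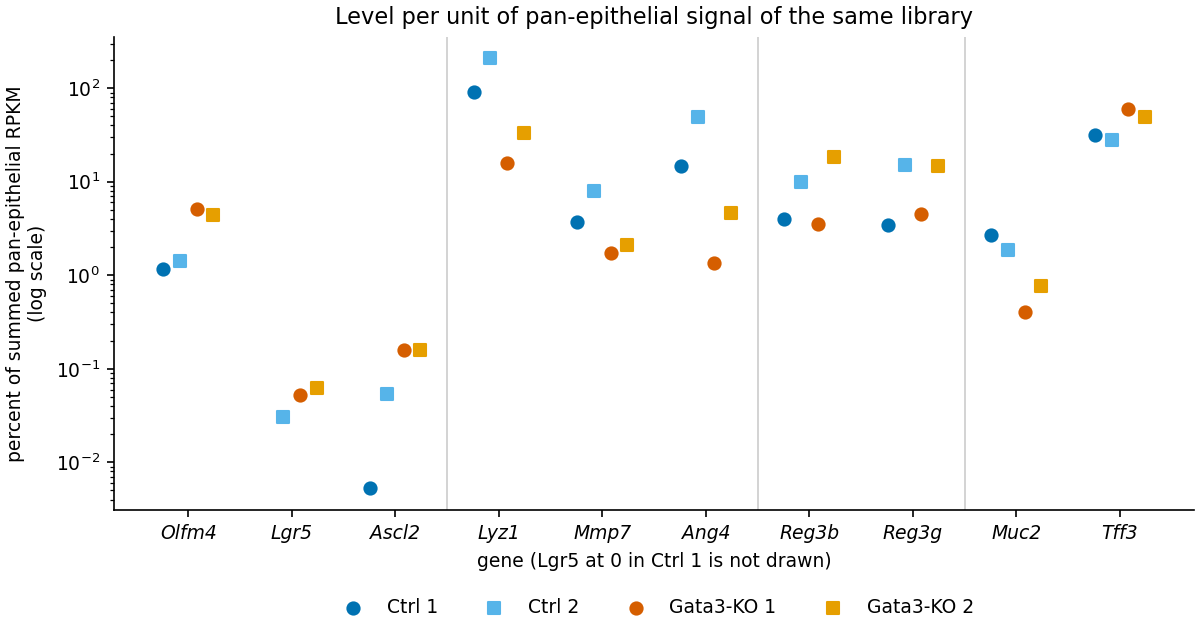
RPKM of each gene as a percent of the summed RPKM of 25 pan-epithelial genes in the same library (vertical axis, log scale) by gene (horizontal axis), with 1 point per library. Olfm4, Ascl2 and Tff3 sit higher in both Gata3-KO libraries, Lyz1, Mmp7, Ang4 and Muc2 sit lower, and the Reg3 genes overlap.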

How the data were processed

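RNA was extracted with a miRNeasy Micro kit and libraries were made by Smart-seq2, which has no molecular identifiers, per the labels' protocols. The submitters' processing notes name Subread, featureCounts and build mm10, without versions. Values deposited by the authors are on a log2 scale. Their spacing fits log2(RPKM + 1) plus an offset of 0.0001. Libraries are scaled to their own totals alone.

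Whole reads were recovered from the values, within 0.001 reads in 100% of 19047 genes with reads, and made up 98.6% to 99.1% of the library totals. Gene lengths were chosen to make them whole, so this share does not show that each length is right. On simulated reads 96.4% of 18904 genes came back exactly. The limit that a count of 0 allows, 3 reads, equalled 0.210 and 0.237 CPM in Ctrl and 0.123 and 0.125 CPM in Gata3-KO. Such limits and the Poisson intervals speak of counting error alone.

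Genes with at least 0.789 CPM (10 reads in the smallest library) in 2 libraries and 15 reads in total were tested, 13660 genes, with limma 3.58.1 in R 4.3.3 (trend and robust variance, two-sided, pseudocount 1). The test was tried on data simulated for this comparison with 13660 genes and no shift of the median gene. It called 12.3% of genes changed 2-fold. For 4-fold changes it called 77.3%, for 8-fold 95.4% and for 16-fold 98.7%. False calls made up 5.97% of the total. Every simulated gene had the same spread beyond counting error, a dispersion of 0.0754 that was the median over the tested genes. These shares therefore do not carry over to genes with a wide spread between libraries, such as the Reg3 genes and most Paneth genes. Symbols and coordinates came from RefSeq (GRCm38.p6) by Entrez identifier, with 25275 of 27179 matched. Python 3.11.15 was used for the other steps.

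The 10 genes and the lists were chosen with earlier results of these data known. Named are the 10, 7 fixed genes, the 5 nearest profiles to Olfm4, and from each of the crypt stem, Paneth, goblet and IL-22 lists up to 4 called genes by adjusted p and the 3 uncalled genes of highest mean RPKM. Reg2, Reg3a, Reg3d, Ang5, Guca2b, Gkn3, Spdef, Creb3l4, Capn9, Tpsg1 and Il18 were named beside these, after their values were seen. Alternatives were median-ratio and upper-quartile scaling, limma-voom, a pseudocount of 0.1, other filters, a replicate block and leaving out each library.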

Additional observations from a re-analysis of the deposited data

How the results depend on the processing

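With 2 libraries per genotype, calls depended strongly on the settings, and so did the log2 differences of most of the 10 genes. Over all settings Olfm4 stayed between 3.50 and 4.27 and Tff3 between 2.34 and 3.62. Lgr5 ran from 1.07 to 5.78, Ascl2 from 2.00 to 5.32 and Reg3b from 0.79 to 4.14. The highest values of Lgr5 and Ascl2 came from limma-voom, 5.78 ± 1.78 and 5.32 ± 1.47 (SE). Lyz1, Mmp7, Ang4 and Muc2 changed sign in some settings. Of the 10 genes 4 were called, 2 with median-ratio scaling, upper-quartile scaling, limma-voom or limma-voom with median-ratio scaling, and 0 without a filter (5 at an unadjusted p under 0.05 in limma). Under the same 5 settings the calls were 3, 2, 4, 1 and 0 in the crypt stem list, 0 each in the Paneth list, 3, 3, 8, 3 and 0 in the goblet list, 1, 1, 3, 1 and 0 in the IL-22 list, and 182, 164, 358, 96 and 0 of all genes. Without a filter, 16, 2, 20, 12 and 4336 genes of these lists and of all genes had an unadjusted p under 0.05. A pseudocount of 0.1 gave 1 Paneth, 10 goblet and 4 IL-22 calls and 898 of all genes, and a filter of 5 CPM gave 1 Paneth call. A filter at the median depth, chosen after seeing the data, left 4 calls among the 10.

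The labels give no shared source for libraries of the same number, and their deviations from the genotype means correlated at -0.0239 over 13660 genes. With replicate number as a block 5 of the 10 genes were called, Reg3g among them, with 3 Paneth genes (2 higher, 1 lower) and 1113 of all genes. The replicate block with median-ratio scaling left 0 calls among the 10 and in each list and 7 of all genes.

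Leaving out 1 library gave 0 calls among the 10, in each list and of all genes at the deposited scaling, with 4 to 7 of the 10 at an unadjusted p under 0.05. With median-ratio scaling it gave 0 to 1 of the 10 and 0 to 34 of all genes. Olfm4 stayed between 3.99 and 4.27 and Tff3 between 2.84 and 3.62 on the log2 scale at the deposited scaling, while Lyz1, Ang4 and Muc2 changed sign.

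Among uncalled genes the direction turned as follows, and the cause was not tested. With median-ratio scaling, upper-quartile scaling, limma-voom with median-ratio scaling and the replicate block with median-ratio scaling, Muc2 gave -0.18, -0.25, -0.22 and -0.18, Lyz2 -0.46, -0.52, -0.46 and -0.46, Socs3 -0.43, -0.50, -0.43 and -0.43, and Reg1 -0.32, -0.38, -0.13 and -0.32. With 1 library left out at the deposited scaling, the values of genes that turned ran from -0.98 to 0.579 for Lyz1, -2.15 to 0.0598 for Ang4, -0.31 to 1.05 for Muc2, -1.28 to 1.49 for Lyz2, -0.32 to 0.073 for Cd44, -1.01 to 0.23 for Igfbp4, -1.03 to 0.49 for Defa24, -0.95 to 0.57 for Itln1, -1.30 to 0.37 for Defa30, -0.16 to 0.47 for Socs3 and -1.72 to 2.22 for Reg1. With median-ratio scaling as well, the values that turned were -0.038 and -0.016 for Mmp7, -0.65 and -0.79 for Muc2, -0.77, -0.15 and -1.77 for Lyz2, -0.20 for Muc3, -0.82, -0.036, -0.42 and -0.43 for Socs3, and -2.38 and -1.72 for Reg1.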
